A study of Homo sapiens with 11 samples.

Results

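The AP-1 set comprised 8 genes for subunits or close partners of the AP-1 transcription factor: FOS, FOSB, FOSL1 and FOSL2 of the Fos family, JUN, JUNB and JUND of the Jun family, and ATF3. Each was read from the transcript cluster (probes summarised jointly as a single transcript locus) that the platform annotation gives that gene symbol alone. They are 8 of 22109 genes with such a cluster. Of these, 7 reached a level filter of 3.80 on the log2 scale on at least 1 array and were tested among 12147 genes, and ATF3 stayed below it on every array. FOSB was the member with more than 1 cluster, and the cluster of higher mean level stands for it.

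All RNA came from MV4-11, an established acute myeloid leukaemia line. On 8 arrays the cells had been transduced with an shRNA and then held in 3 µM doxycycline for 24 h: shRUNX1+shRUNX2+shRUNX3 (the triple knockdown), shRUNX1+shRUNX3, shRUNX1+shRUNX2, shRUNX2+shRUNX3, the single knockdowns shRUNX1, shRUNX2 and shRUNX3, and a luciferase shRNA (shLuc) as their control. On 3 further arrays the cells had been kept for 6 h with Chb-M' at 1 µM, Chb-50 at 1 µM or DMSO, and no transduction or doxycycline is described for them. The series examined expression after RUNX knockdown or after treatment with alkylating PIP conjugates, which the labels name Chb-M' and Chb-50. Each condition had 1 array, so a single-array difference carries no replicate error of its own. Whether the transduced cells were pools or clones, and which sequences the shRNAs carried, is not stated in the labels.

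AP-1 is a pair of bZIP proteins, usually a Jun with a Fos or another Jun, that binds DNA through a shared leucine zipper and basic region. FOS, FOSB, JUN and ATF3 are classic immediate early or stress-induced genes: kinase cascades act on transcription factors already bound at their promoters, the transcripts appear within minutes, and they are degraded quickly. JUND and FOSL2 are usually expressed more steadily, and in myeloid cells AP-1 takes part in monocyte and macrophage differentiation, where RUNX1 and AP-1 sites often lie close together.

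The promoter windows of FOS, FOSB and JUN are printed because these members lay at least 2-fold higher with Chb-M', and that of JUND because it lay lower on all arrays with the RUNX1 shRNA. RefSeq (GRCh38.p14) gives a window of 250 bases before to 50 bases after the start for 7 of the 8 members; FOSL1 was not among them. The windows lie at chr14:75278578-75278877 on the plus strand for FOS, chr19:45467746-45468045 on the plus strand for FOSB, chr1:58783998-58784297 on the minus strand for JUN and chr19:18281573-18281872 on the minus strand for JUND. Capitals mark every match, on either strand, to the AP-1 site TGACTCA, the CRE site TGACGTCA, its core TGACG, the RUNX motifs TGTGGT and TGCGGT, the CArG box that SRF binds, and TATAAA.
FOS: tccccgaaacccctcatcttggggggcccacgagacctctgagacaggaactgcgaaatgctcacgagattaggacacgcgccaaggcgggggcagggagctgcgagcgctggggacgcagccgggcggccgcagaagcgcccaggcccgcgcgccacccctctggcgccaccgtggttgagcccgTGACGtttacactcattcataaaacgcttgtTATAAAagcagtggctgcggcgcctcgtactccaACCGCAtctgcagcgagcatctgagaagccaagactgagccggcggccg
FOSB: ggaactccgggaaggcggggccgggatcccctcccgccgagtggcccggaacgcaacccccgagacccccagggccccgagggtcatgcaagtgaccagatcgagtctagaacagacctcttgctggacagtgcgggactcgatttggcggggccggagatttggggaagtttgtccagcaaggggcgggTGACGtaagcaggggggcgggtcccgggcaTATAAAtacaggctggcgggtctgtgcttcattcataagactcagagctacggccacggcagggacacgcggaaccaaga
JUN: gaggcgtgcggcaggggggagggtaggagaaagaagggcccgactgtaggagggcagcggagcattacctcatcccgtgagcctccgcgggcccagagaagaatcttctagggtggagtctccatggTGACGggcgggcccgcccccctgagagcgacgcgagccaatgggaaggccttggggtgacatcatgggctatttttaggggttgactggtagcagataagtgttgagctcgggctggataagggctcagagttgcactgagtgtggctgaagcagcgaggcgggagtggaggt
JUND: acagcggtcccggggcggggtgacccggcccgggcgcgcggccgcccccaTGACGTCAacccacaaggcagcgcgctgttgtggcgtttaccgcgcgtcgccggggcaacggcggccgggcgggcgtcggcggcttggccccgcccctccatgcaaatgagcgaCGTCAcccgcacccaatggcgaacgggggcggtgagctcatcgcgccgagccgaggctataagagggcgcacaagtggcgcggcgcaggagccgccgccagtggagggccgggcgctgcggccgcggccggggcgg
The core TGACG, which also lies inside every TGACGTCA, occurred in 6 of the 7 windows, against 25% of 27305 RefSeq promoters of the same length. Counted from the start, it began at -64 in FOS, at -60 in FOSB and at -123 in JUN. The JUND window held a whole TGACGTCA beginning at -200, a match found in 1.98% of promoters. TATAAA occurred in 3 of the 7 windows (FOS, FOSB and JUNB), against 12% of promoters. TGACTCA was found in 1 of the 7, that of FOSL2, against 4.92% of promoters. TGTGGT was found in 0 of the 7 (13.1% of promoters), TGCGGT in 1 of the 7, that of FOS (7.11%), and the CArG box in 0 of the 7 (1.29%). These are exact letter matches in a short window at 1 start a gene. Sites at other starts of a gene, further from the start, or differing from a motif by a letter, were not searched for. This holds for ATF3 too, whose window was the one without TGACG. The matches say nothing of binding in these cells.

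The knockdown labels were checked on the targeted genes. RUNX2 read 5.56 to 5.82 on the 4 arrays with its shRNA and 6.00 to 6.30 on the 4 without it. RUNX3 read 7.65 to 7.87 with its shRNA and 7.70 to 8.37 without it, and the low value of 7.70 came from the array labelled shRUNX1. The cluster shared by RUNX1 and LOC100506403 read 3.96 to 4.26 with the RUNX1 shRNA and 4.20 to 4.45 without it. Its value of 4.26 came from the array labelled shRUNX1+shRUNX2 and falls within the range seen without that shRNA. The RUNX1 shRNA estimates of FOS, JUND, JUNB and FOSL1 are therefore also given without each of these 2 arrays. The same is done for the FOS estimate of the RUNX1 by RUNX3 interaction. All 10 myeloid markers with a cluster reached the level filter on at least 1 array, against 1 of 5 T cell, 2 of 4 B cell, 2 of 4 erythroid, 2 of 5 epithelial and 0 of 3 fibroblast markers. The highest were LYZ (11.05 to 11.60), CD68 (9.29 to 10.33) and FLT3 (9.33 to 9.87). The lowest, ITGAM (3.84 to 4.49) and MPO (4.89 to 5.50), lay near CD79A of the B cell markers (4.11 to 4.92) and KRT8 of the epithelial markers (4.39 to 4.97). Per-array medians of the tested genes spanned only 5.86 to 5.91.

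With Chb-M', FOS, FOSB and JUN lay more than 2-fold above DMSO, and JUNB lay above it by less. FOS, the founding Fos protein, read 8.01 with Chb-M', against 6.45 with DMSO, a log2 difference of 1.56 or 2.95-fold. FOSB, its close paralogue, read 6.21 with Chb-M', against 4.84 with DMSO (1.36, 2.57-fold). JUN, the main partner of FOS, read 6.38 with Chb-M', against 5.32 with DMSO (1.05, 2.08-fold). These 3 of the 7 members tested stand against 0.313% of all genes tested that lay at least 2-fold higher with Chb-M', and 0 of 7 stand against 0.56% that lay at least 2-fold lower. JUNB, a Jun protein with weaker activation by its own dimers, read 8.35 with Chb-M', against 7.90 with DMSO (0.44).

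**Figure D1:**
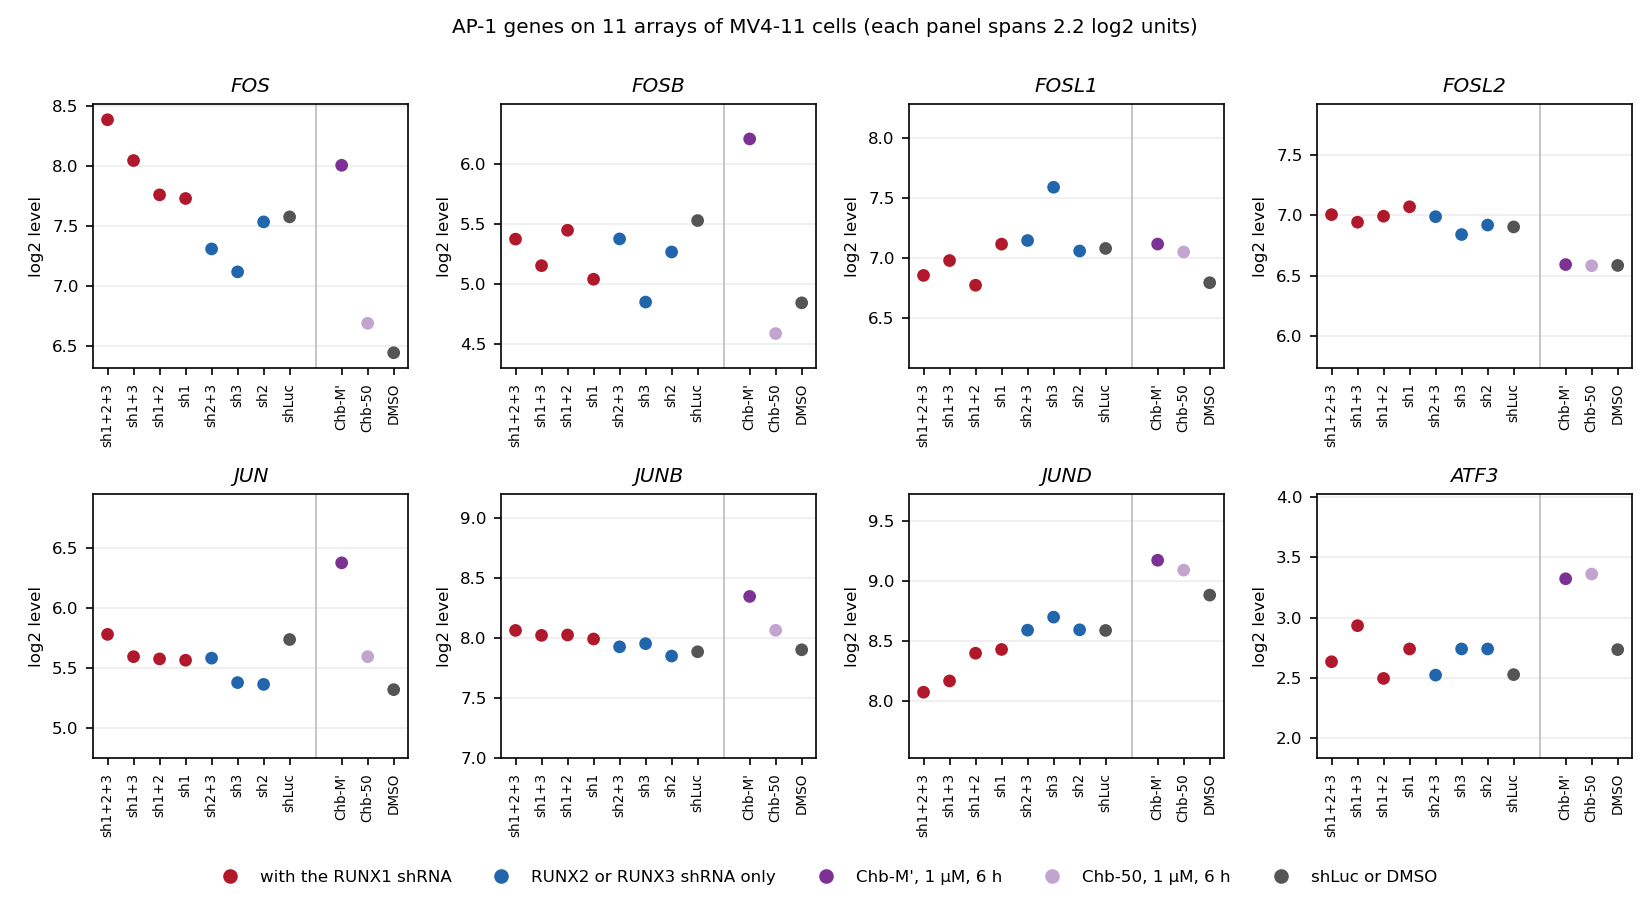
Log2 level of each AP-1 gene (y axis) on each of the 11 arrays (x axis), 1 point an array, with sh1, sh2 and sh3 for the shRNAs against RUNX1, RUNX2 and RUNX3; every panel spans the same range so that slopes can be compared. FOS, FOSB, JUN and JUNB stand higher with Chb-M' than with DMSO, FOS is highest on the triple knockdown (8.39), and JUND is lowest there (8.08).

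The remaining members lay closer to DMSO. FOSL1, a Fos protein without the strong activation domain of FOS, read 7.11 with Chb-M', against 6.79 with DMSO (0.32). JUND read 9.17 with Chb-M', against 8.88 with DMSO (0.29). FOSL2, the other Fos protein of this kind, read 6.59 with Chb-M', against 6.58 with DMSO (0.01). All 7 tested members thus lay on the higher side, with a median difference of 0.44, against 0.02 over all genes tested. ATF3, a stress-induced bZIP repressor, read 3.32 with Chb-M', against 2.73 with DMSO, both below the level filter (0.59, 95% interval 0.14 to 1.04, limma adjusted p = 0.281 in a fit without the filter).

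No member passed the test in which limma takes the spread from the knockdown arrays and adjusts by Benjamini-Hochberg over all 12147 genes. This fit lends the spread of the knockdown arrays to the 3 others, and no condition has replicates. That spread includes any shRNA interaction left out of the fit. FOSB had a standard error of 0.270 and a 95% interval of 0.73 to 1.998 (adjusted p = 0.0842, limma). JUN had a standard error of 0.211 and an interval of 0.56 to 1.55 (adjusted p = 0.0855, limma). For FOS the standard error was 0.337 and the interval 0.77 to 2.35 (adjusted p = 0.103, limma), and for JUNB they were 0.103 and 0.20 to 0.69 (adjusted p = 0.124, limma). The 95% intervals of these 4 members exclude 0, while those of FOSL1 (-0.15 to 0.79), JUND (-0.10 to 0.68) and FOSL2 (-0.27 to 0.29) include it. At an unadjusted p under 0.05 there were 4 of 7 members and 13.9% of all genes tested, and at an adjusted p under 0.05 there were 0 of 7 members and 0.609% of all genes tested. When the shRNA terms were replaced by the number of RUNX genes targeted, JUN passed (adjusted p = 0.0437, limma), the 1 alternative under which a member was called in this comparison. In that fit 144 of all 12147 genes tested passed. The 2 clusters of FOSB gave differences of unequal size: the one of lower level read 3.92 with Chb-M', against 3.33 with DMSO, and the mean of the 2 clusters gave a difference of 0.98, just under 2-fold.

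With Chb-50, at the same dose and time, the 7 tested members differed from DMSO by -0.26 to 0.27 log2 units. FOS read 6.69 with Chb-50, against 6.45 with DMSO (0.25, interval -0.55 to 1.04). JUN read 5.60 with Chb-50, against 5.32 with DMSO (0.27, interval -0.22 to 0.77). FOSB read 4.59 with Chb-50, against 4.84 with DMSO, on the lower side (-0.26, interval -0.89 to 0.38). Of the 7 members, 5 were on the higher side and 0 reached 2-fold either way, against 0.14% of all genes tested at least 2-fold higher and 0.156% at least 2-fold lower. Their median difference was 0.21, against 0.00 over all genes tested. Adjusted p-values ran from 0.741 for JUNB upward (limma). Over all genes tested limma called 0 at this threshold, and 1114 (9.17%) had an unadjusted p under 0.05. ATF3 read 3.36 with Chb-50, against 2.73 with DMSO, again below the filter (0.63, 95% interval 0.18 to 1.08, limma adjusted p = 0.384 without the filter). The Chb-M' and Chb-50 differences share the 1 DMSO array.

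The arrays of the 2 compounds were also compared with each other, at 1 µM and 6 h, which is the 1 pair of compounds in the series. FOSB lay 1.62 higher with Chb-M' than with Chb-50 (interval 0.98 to 2.25), FOS 1.31 higher (0.52 to 2.11), JUN 0.78 higher (0.28 to 1.28) and JUNB 0.28 higher (0.04 to 0.53). FOSB and FOS were the 2 of 7 members at least 2-fold higher, against 0.123% of all genes tested. With the mean of its 2 clusters FOSB differed by 0.99, which leaves FOS as the 1 member past 2-fold. The adjusted p-values were 0.372 for FOSB, 0.470 for FOS, 0.505 for JUN and 0.624 for JUNB (limma), so none passed, and over all genes tested 0 passed while 869 (7.15%) had an unadjusted p under 0.05. For the other members the differences were 0.07 for FOSL1 (interval -0.41 to 0.54), 0.08 for JUND (-0.31 to 0.47) and 0.01 for FOSL2 (-0.27 to 0.29). ATF3, in a fit without the level filter, differed by -0.04 between the compounds (interval -0.49 to 0.41).

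**Figure D2:**
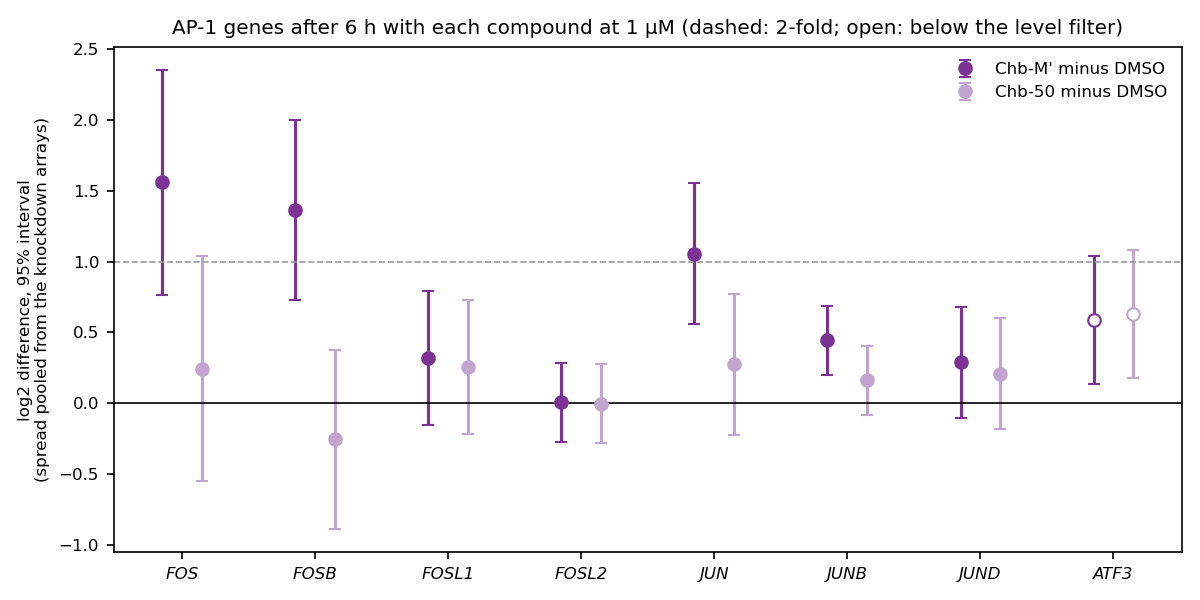
Log2 difference from DMSO (y axis) of each AP-1 gene (x axis) for Chb-M' and Chb-50, with bars for the 95% interval of the limma fit and the dashed line at 2-fold; open points mark ATF3, below the level filter and fitted without it. The Chb-M' intervals of FOS, FOSB, JUN and JUNB lie above 0, and those of Chb-50 include 0 for all 7 tested genes.

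The genes around AP-1 were read from lists chosen with earlier results of these data known. Some genes are in more than 1 list, such as IER2, IER3, KLF4 and ZFP36, so the list counts are not independent. The share of all genes tested that lay higher was not counted, and their median difference with Chb-M' was 0.02. Of 17 tested EGR, NR4A and other immediate early genes, 13 lay higher with Chb-M' than with DMSO, with a median of 0.25, and 0 passed the test. The orphan nuclear receptor NR4A2 read 5.24 with Chb-M', against 4.29 with DMSO (0.95, limma adjusted p = 0.136). IER5, a regulator of the heat shock response, read 7.27 with Chb-M', against 6.37 with DMSO (0.91, limma adjusted p = 0.0713). The zinc finger factor EGR1 read 7.07 with Chb-M', 5.88 with Chb-50 and 6.16 with DMSO, and its difference of 1.19 between the compounds was the 1 in this list past 2-fold there. With Chb-50 the median of the list was 0.00.

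Among 21 tested stress response genes listed beside ATF3, 17 lay higher with Chb-M', with a median of 0.25, and 2 passed the test, against 0.132% of all genes tested called higher. CDKN1A, the cyclin-dependent kinase inhibitor p21, rose to 7.36 with Chb-M', against 5.91 with DMSO (1.44, limma adjusted p = 0.0470). GADD45A, a DNA damage-induced gene, rose to 7.36 with Chb-M', against 6.41 with DMSO (0.95, limma adjusted p = 0.0447). With Chb-50 the levels were 7.14 for CDKN1A (1.23 above DMSO) and 7.21 for GADD45A (0.80 above DMSO), and 0 of the list passed. These calls rest on the spread of the knockdown arrays: over all genes, the 74 calls for Chb-M' became 5 without shRUNX1+shRUNX3, 77 without shRUNX1, and 0 without each other knockdown array. The sestrin SESN2 (1.40, limma adjusted p = 0.0871) and the kinase PLK2 (1.37, limma adjusted p = 0.0791) were also past 2-fold with Chb-M', and PLK2 was past it with Chb-50 too (1.17, limma adjusted p = 0.231).

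The kinases and transcription factors upstream of FOS and JUN lay on the lower side more often, with 7 of 22 higher with Chb-M', a median of -0.09 and 0 past the test. MAP2K6, a kinase that activates p38, read 3.75 with Chb-M', against 5.26 with DMSO (-1.52, limma adjusted p = 0.124). MAP3K5, the stress kinase ASK1 above JNK and p38, read 4.35 with Chb-M', against 5.44 with DMSO (-1.09, limma adjusted p = 0.0565). SRF, which binds the CArG box, differed by 0.18. In the list of ERK and JNK feedback inhibitors, which also holds IER2 and IER3 of the immediate early list, 10 of 11 genes lay higher. The median was 0.22 and 0 passed the test, the highest being ERRFI1 (0.50) and the phosphatase DUSP1 (0.43).

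The other lists stayed near the median of all genes with Chb-M', and 0 of their genes passed. The 15 other AP-1 and bZIP partners had a median of -0.01, from ATF6 (-0.46) to the small Maf protein MAFF (0.64, limma adjusted p = 0.144). The 7 early mRNA decay regulators had a median of 0.03, with ZFP36, whose protein binds AU-rich elements, the highest (0.33). The 18 genes with known AP-1 sites had a median of 0.10, from the chemokine gene CCL3 (-0.80) to the chemokine gene CXCL8 (0.45). Both lay near the level filter: CCL3 read 3.11 with Chb-M', against 3.91 with DMSO, and CXCL8 4.07, against 3.62. With Chb-50, 0 genes of any of these 7 lists passed, and the list medians lay between -0.05 and 0.12.

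**Figure D3:**
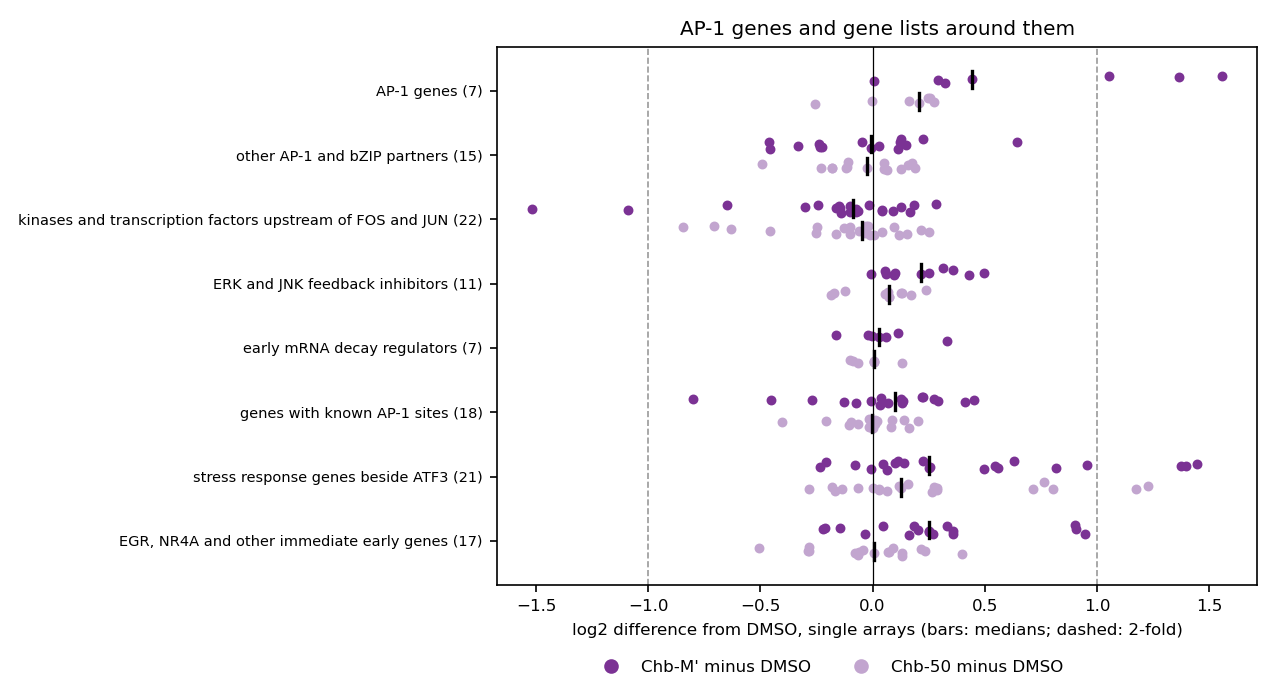
Log2 difference from DMSO on single arrays (x axis) of the 7 tested AP-1 genes and of 7 gene lists around them (y axis, number of tested genes in brackets), 1 point a gene, with bars at the list medians and dashed lines at 2-fold. The AP-1 genes have a median of 0.44 with Chb-M' and 0.21 with Chb-50.

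On the knockdown arrays, FOS and JUND differed most with the RUNX1 shRNA, in opposite directions. FOS read 8.39 on the triple knockdown, 8.05 on shRUNX1+shRUNX3, 7.76 on shRUNX1+shRUNX2 and 7.73 on shRUNX1, against 7.31 on shRUNX2+shRUNX3, 7.12 on shRUNX3, 7.54 on shRUNX2 and 7.58 on shLuc. All 4 arrays with the RUNX1 shRNA thus lay above all 4 without it, with means of 7.98 ± 0.305 with it and 7.39 ± 0.213 without it (SD, n = 4 each). JUND, a Jun protein that many cells express without stimulation, read 8.08 on the triple knockdown, 8.17 on shRUNX1+shRUNX3, 8.40 on shRUNX1+shRUNX2 and 8.43 on shRUNX1, against 8.59 on shRUNX2+shRUNX3, 8.70 on shRUNX3, 8.59 on shRUNX2 and 8.59 on shLuc. All 4 arrays with the RUNX1 shRNA lay below all 4 without it, with means of 8.27 ± 0.174 with it and 8.62 ± 0.0542 without it (SD, n = 4 each).

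JUNB was the third member without overlap, with 7.99 to 8.06 on the arrays with the RUNX1 shRNA and 7.85 to 7.95 on those without it. These 3 of 7 members stand against 9.88% of all genes tested whose arrays with and without the RUNX1 shRNA do not overlap, 5.15% with all 4 higher, as FOS and JUNB were, and 4.73% with all 4 lower, as JUND was. FOSL1 read 6.77 to 7.11 with the RUNX1 shRNA and 7.06 to 7.59 without it, so its ranges overlapped. In the additive limma fit the RUNX1 shRNA estimate was 0.59 for FOS (standard error 0.168, adjusted p = 0.125), -0.35 for JUND (0.0834, adjusted p = 0.102), 0.12 for JUNB (0.0517, adjusted p = 0.235) and -0.29 for FOSL1 (0.100, adjusted p = 0.171). FOSL2 (0.09), JUN (0.11) and FOSB (-0.00) had adjusted p-values of 0.422 or more. None of the 7 passed, nor did any of the 12147 genes (0%), while 4 of 7 members and 21.2% of all genes had an unadjusted p under 0.05 (limma).

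Leaving out the array labelled shRUNX1 gave 0.67 for FOS (adjusted p = 0.0844, limma) and -0.39 for JUND (adjusted p = 0.0585, limma). Leaving out shRUNX1+shRUNX2 gave 0.72 for FOS (adjusted p = 0.157, limma) and -0.40 for JUND (adjusted p = 0.153, limma). JUNB gave 0.12 without shRUNX1 (adjusted p = 0.225, limma) and 0.11 without shRUNX1+shRUNX2 (adjusted p = 0.387, limma). FOSL1 gave -0.36 (adjusted p = 0.0871, limma) and -0.30 (adjusted p = 0.271, limma) in the same order. Over all 8 fits that each leave out 1 array, the FOS estimate ran from 0.44, without the triple knockdown, to 0.74, without shLuc (adjusted p = 0.0844 to 0.352, limma). The JUND estimate ran from -0.41, without shLuc, to -0.29, without shRUNX3 (adjusted p = 0.0585 to 0.314, limma). With all pairwise interactions in the fit, which leaves 1 residual degree of freedom, FOS passed (0.59, adjusted p = 0.0451, limma). In that fit 391 of all 12147 genes tested passed. Without the array labelled shRUNX1, 817 of all genes tested passed for this shRNA, and no member was among them.

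Each array with the RUNX1 shRNA has a partner that differs only in that shRNA, and the size of the difference varied with the RUNX3 shRNA. FOS lay 1.07 higher on the triple knockdown than on shRUNX2+shRUNX3 and 0.93 higher on shRUNX1+shRUNX3 than on shRUNX3, but 0.22 higher on shRUNX1+shRUNX2 than on shRUNX2 and 0.15 higher on shRUNX1 than on shLuc. JUND lay lower by -0.52 and -0.53 in the pairs with the RUNX3 shRNA and by -0.19 and -0.16 in the pairs without it. JUNB and FOSL2 lay higher in all 4 pairs, JUNB by 0.07 to 0.18 and FOSL2 by 0.02 to 0.17, and 14.9% of all genes tested lay higher in 4 of 4 pairs and 13% lower in 4 of 4. FOSL1 lay lower in 3 of 4 pairs (-0.61 to 0.04).

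**Figure D4:**
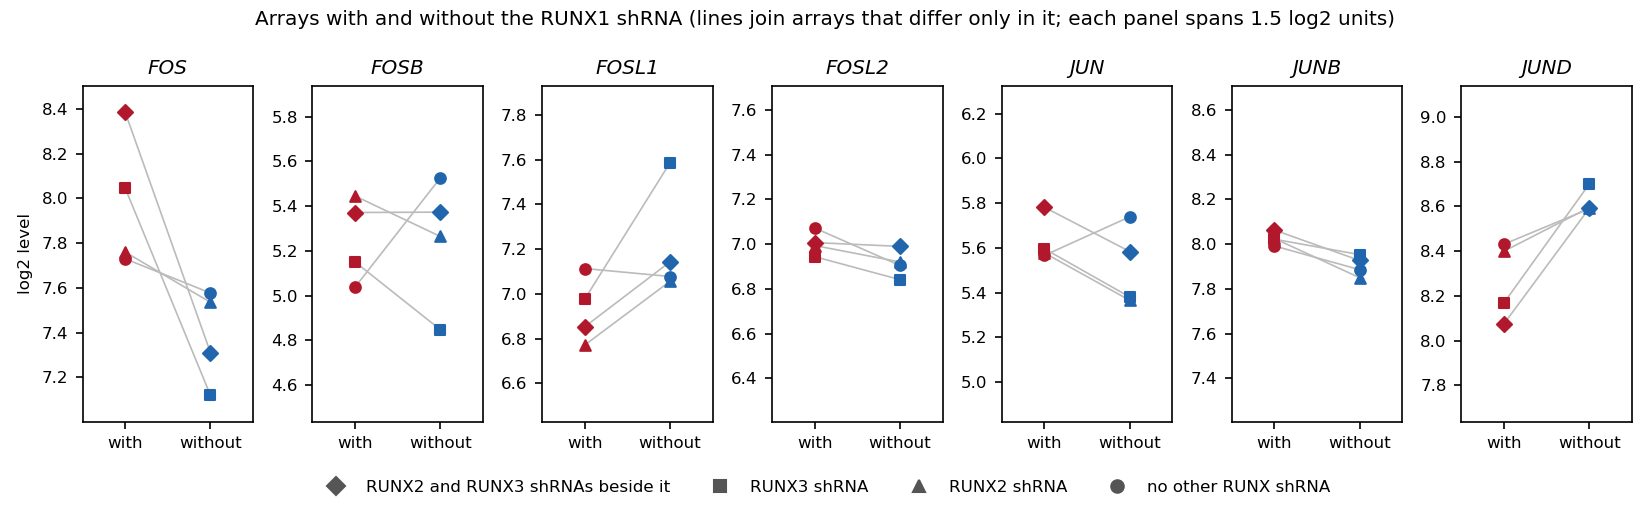
Log2 level (y axis) of the 7 tested AP-1 genes on the 4 arrays with and the 4 without the RUNX1 shRNA; lines join arrays that differ in that shRNA alone, and the marker shape gives the other shRNAs. FOS and JUNB lie higher and JUND lower on all 4 arrays with it, and the FOS and JUND lines are steepest where the RUNX3 shRNA is present (squares and diamonds).

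The RUNX1 by RUNX3 interaction asks whether both shRNAs together differ from the sum of each. Beside the RUNX1 shRNA, the arrays with the RUNX3 shRNA read 0.62 and 0.32 higher for FOS than their partners without it, whereas in its absence they differed by -0.22 and -0.46. For JUND the RUNX3 shRNA differences were -0.32 and -0.26 beside the RUNX1 shRNA, and -0.00 and 0.11 in its absence. The interaction estimate was 0.81 for FOS (standard error 0.153, 95% interval 0.44 to 1.18, unadjusted p = 0.00174, limma), and its adjusted p of 0.249 did not pass. For JUND it was -0.35 (standard error 0.103, interval -0.60 to -0.10, unadjusted p = 0.0147, limma), with an adjusted p of 0.302. At an unadjusted p under 0.05 there were 2 of 7 members and 12.7% of all genes tested, and 0 of either after adjustment. FOSB (0.30), JUN (0.19), FOSL1 (-0.33), FOSL2 (-0.06) and JUNB (-0.04) had intervals that include 0. The RUNX3 level of 7.70 on the array labelled shRUNX1 bears on this comparison: without that array the FOS estimate was 0.88 (adjusted p = 0.401, limma), and without shRUNX1+shRUNX2 it was 0.75 (adjusted p = 0.162, limma).

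**Figure D5:**
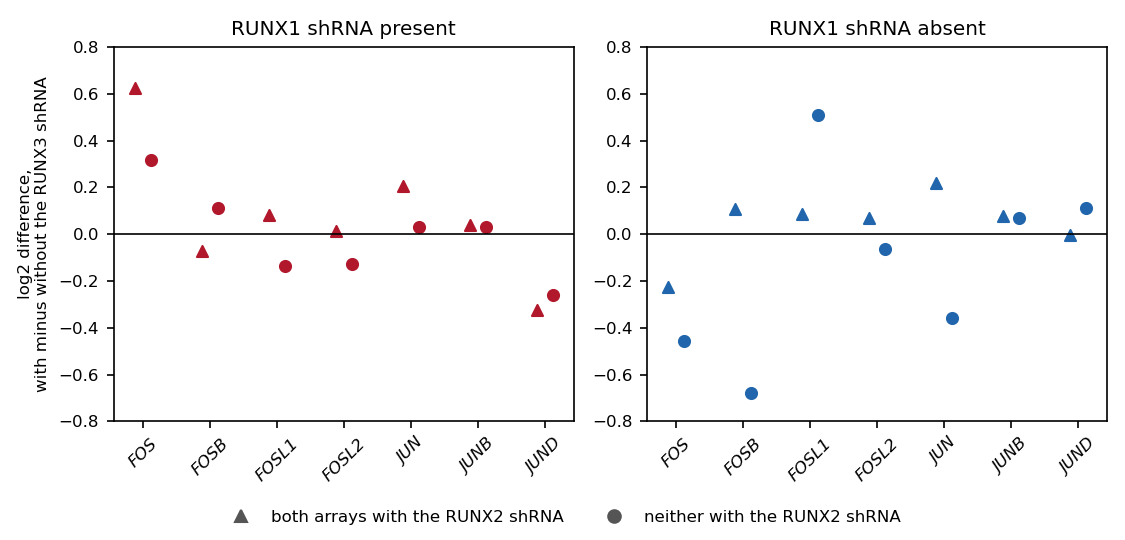
Log2 difference (y axis) between arrays with and without the RUNX3 shRNA for the 7 tested AP-1 genes (x axis), beside the RUNX1 shRNA (left) and in its absence (right); marker shapes show whether both arrays also carried the RUNX2 shRNA. The FOS points lie at 0.62 and 0.32 on the left and at -0.22 and -0.46 on the right.

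Averaged over the other shRNAs, neither the RUNX2 nor the RUNX3 shRNA separated any member. The RUNX2 shRNA estimates ran from -0.23 for FOSL1 to 0.22 for FOSB, with adjusted p-values of 0.965 or more (limma). FOSL1 lay lower in all 4 pairs that differ in the RUNX2 shRNA alone (-0.44 to -0.02), as did 6.34% of all genes tested. JUNB lay higher in all 4 pairs that differ in the RUNX3 shRNA alone (0.03 to 0.08), as did 8.06% of all genes tested. The RUNX3 shRNA estimates ran from -0.13 for FOSB to 0.14 for FOSL1, with adjusted p-values of 0.677 or more (limma). For both shRNAs 0 of 7 members were without overlap, against 1.54% of all genes tested for the RUNX2 shRNA and 3.19% for the RUNX3 shRNA. Of all genes tested, 593 (4.88%) had an unadjusted p under 0.05 for the RUNX2 shRNA and 1141 (9.39%) for the RUNX3 shRNA, and 0 passed after adjustment for either (limma).

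Set against shLuc one array at a time, 0 members reached 2-fold on any of the 7 RUNX shRNA arrays, against 1.43% of all genes tested on the triple knockdown, 1.98% on shRUNX1+shRUNX3, 0.362% on shRUNX1+shRUNX2, 0.115% on shRUNX2+shRUNX3, 0.198% on shRUNX1, 0.181% on shRUNX2 and 0.222% on shRUNX3, either way. The largest member difference was that of FOS on the triple knockdown, 8.39 against 7.58 on shLuc (0.81, 1.75-fold). JUND read 8.08 on the triple knockdown, against 8.59 on shLuc (-0.51). FOSB lay lower on all 7 RUNX shRNA arrays than on shLuc, which all share, most on shRUNX3 (4.85, against 5.53 on shLuc, -0.68), as did 13.7% of all genes tested. This held for its chosen cluster: the other read 4.32 on shRUNX1, 4.04 on shRUNX2 and 4.10 on shRUNX2+shRUNX3, against 4.03 on shLuc. The same shRUNX3 array had the highest FOSL1 level of the series (7.59, against 7.08 on shLuc) and the lowest FOS level of the transduced arrays (7.12). ATF3 read 2.49 to 2.93 on the RUNX shRNA arrays and 2.53 on shLuc, below the filter throughout.

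On the triple knockdown array the genes around AP-1 differed from shLuc in places. Of the genes with known AP-1 sites, the integrin ITGAX lay 1.36 higher and CD68 1.04 higher, and TNF lay lower (-0.91). ITGAX read 4.59 on the triple knockdown, against 3.23 on shLuc, which is below the level filter, and 5.28 with DMSO. CD68 read 10.33, against 9.29 on shLuc, its lowest level in the series. Both differences thus lean on a low value of the single control array. Among upstream factors ELK3 lay 0.83 higher and the kinase MAP2K3 0.62 higher. DUSP1 (-0.51) and EGR1 (-0.42) lay lower, the side opposite to FOS on this array. ERRFI1 (0.36) and TRIB1 (0.38), from the same 2 lists, lay higher. On the higher side were 4 of 11 genes of the feedback inhibitor list and 7 of 17 immediate early genes. The share of all genes tested on that side was not counted, and their median difference on this array was 0.00. Of the stress response genes, PHGDH (-1.46) and ASNS (-1.07), enzymes of serine and asparagine synthesis, lay more than 2-fold lower. For the RUNX1 shRNA 0 genes of any of the 7 lists passed, and the list medians lay between -0.07 and 0.11 (limma).

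The transduced arrays and the DMSO and compound arrays differed by transduction, doxycycline and time in culture, which cannot be told apart. FOS read 7.58 on shLuc, against 6.45 with DMSO (1.13, 2.19-fold), and 0.362% of all genes tested lay at least 2-fold higher on shLuc. FOSB read 5.53 on shLuc, against 4.84 with DMSO (0.68), and JUN 5.74, against 5.32 (0.42). FOSL2 read 6.84 to 7.07 on the 8 transduced arrays and 6.58 to 6.59 on the other 3 arrays, without overlap. JUND read 8.08 to 8.70 on the transduced arrays and 8.88 to 9.17 on the other 3, also without overlap, and in the opposite direction. These were 1 of 7 members in each direction, against 8.31% of all genes tested above and 7.83% below. Of the 10 myeloid markers, 3 (LYZ, MPO and MEIS1) also lay higher on all 8 transduced arrays than on the other 3, 2 (FLT3 and CEBPA) lay lower on all 8, and 5 overlapped. The summed log2 level of the list was 76.8 to 78.9 on the transduced arrays and 76.3 to 77.0 on the others. The part of these markers in the FOSL2 and JUND values was not tested, and in bulk RNA fewer cells of a type and less RNA per cell cannot be told apart.

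Over all 11 arrays, the order of levels put Chb-M' at the top for FOSB, JUN, JUNB and JUND. For FOS the triple knockdown was at the top, then shRUNX1+shRUNX3 and Chb-M', and DMSO was at the bottom. Neighbours in an order were compared with the width of the 95% interval for a difference of 2 arrays, which was 0.79 log2 units to either side for FOS, 0.63 for FOSB, 0.50 for JUN and 0.24 for JUNB. The step up to Chb-M' from its nearest neighbour was the 1 of 10 steps past that width for FOSB (0.68 above shLuc), JUN (0.60 above the triple knockdown) and JUNB (0.28). For FOSB this is its chosen cluster, and in the other Chb-M' read 3.92, below shRUNX1 (4.32), shRUNX2+shRUNX3 (4.10), shRUNX2 (4.04) and shLuc (4.03). For FOS, FOSL1, FOSL2 and JUND 0 of 10 steps exceeded that width. The width is made for 2 arrays chosen beforehand and not for the largest of 10 steps. How many of all genes tested have such a step, or Chb-M' at the top, was not counted. FOSL1 had its highest level on shRUNX3 and its lowest on shRUNX1+shRUNX2, and FOSL2 its highest on shRUNX1.

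Members moved together in some pairs and apart in others, as described by Pearson's r over arrays that share a laboratory line and, in part, shRNAs. JUN and JUNB had r = 0.87 over the 11 arrays and 0.45 over the 8 knockdown arrays. FOSB and JUN had r = 0.81 over the 11 arrays and 0.63 over the 8. FOS and JUND had r = -0.61 over the 11 arrays and -0.96 over the 8, the strongest relation of any pair on the knockdown arrays. FOSL2 and JUND had r = -0.86 over the 11 arrays and -0.50 over the 8.

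The genes whose levels were most like each member over the 11 arrays were ranked among the genes tested, apart from symbols left out as described below. For FOS they were SIAE (r = 0.95), RHBDL1 (0.94) and LZTR1 (0.93), and for FOSB they were NPL (0.89), EEF1AKMT1 (0.88) and CFL1 (0.87). FOSL1 was most like PPM1G (0.95), ERAL1 (0.93) and EMC8 (0.89). FOSL2 was most like HIBADH (0.98) and the myeloid genes MNDA (0.98) and LYZ (0.96). JUN was most like DRD5 (0.96), SLC26A6 (0.92) and ANP32A (0.90), and JUNB was most like RFXANK (0.96), XPC (0.94) and TOB1 (0.94). JUND was most like HMCES (0.99), the amino acid transporter gene SLC1A4 (0.99) and NRARP (0.98). No member was among the 3 genes most like another. Over the 8 knockdown arrays alone some of these relations were weaker, with r = 0.45 for EEF1AKMT1 and 0.38 for CFL1 beside FOSB, and 0.64 for LYZ beside FOSL2. Some of these genes lay near the level filter and varied little. DRD5 read 4.13 to 4.63, with 4.28 on several arrays, RHBDL1 3.77 to 4.40 and CFL1 4.01 to 4.31. A high r for such genes rests on small differences at low level.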

How the data were processed

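Per the labels' protocols, total RNA was labelled with the WT PLUS reagents of Affymetrix. The authors deposited 1 table of log2 values, a level for every transcript cluster and array. The submitters' processing notes name RMA, Transcriptome Analysis Console 1.0 and Affymetrix Expression Console 1.3.1 without saying which step each did. No genome build for the probes is given in the sources used here. Precision is limited by the number of arrays, and signal over background is unknown.

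Of 53617 clusters, 23558 have 1 gene symbol in the platform annotation, 2155 have several and 27904 have none listed. Genes with several clusters were read from the cluster of highest mean level. A gene was tested if its highest level reached 3.80, the median of all 1-symbol values.

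On the 8 knockdown arrays, limma 3.58.1 (R 4.3.3) fitted the 3 shRNAs as additive terms, which left 4 residual degrees of freedom. The interaction fit added the RUNX1 by RUNX3 product. The compounds were fitted on all 11 arrays with a level each for DMSO, Chb-M' and Chb-50. All p-values were adjusted by Benjamini-Hochberg over all genes tested, at a threshold of 0.05. The fits were also run on simulated data, drawn for all 11 arrays with the spread of the additive fit and no shRNA interaction. Such data take for granted that the compound arrays vary like the knockdown arrays, so they cannot test it. The compound fit has the same 4 residual degrees of freedom, because the DMSO, Chb-M' and Chb-50 arrays add none. The spread thus comes from the 8 knockdown arrays, which have no replicates, and mixes noise with any shRNA interaction left out of the fit. For FOS the RUNX1 by RUNX3 interaction estimate of 0.81 falls into the additive spread. The FOS standard errors with that spread were 0.168 (RUNX1 shRNA) and 0.337 (Chb-M' versus DMSO). A p-value here reflects this spread alone. Since no label says that the arrays stem from separate cultures, transductions or days, its noise may be technical.

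The members, the lists, the tests and the alternatives were chosen with earlier results of these data known. The naming rule takes the 8 members, RUNX1, RUNX2 and RUNX3, the 2 highest and 2 lowest genes of each list in each compound comparison and the triple knockdown, and the 3 genes most like each member, leaving out uncharacterised loci, antisense and small RNAs, antigen receptor segments and olfactory receptors. For the likeness ranking, the symbol pattern used also dropped FAM and TMEM symbols with a number, and every symbol ending in P and digits, such as DUSP1. Protein-coding genes with such symbols could therefore not be ranked. The text does not print every gene that the rule takes. FLT3, MPO, MEIS1, CEBPA, ITGAM, CD79A and KRT8, which come from the cell type markers, GADD45A, and PLK2 with Chb-M' fall outside it. They were chosen after their values were seen. The alternatives were no level filter, a stricter one (4.66), quantile normalization, the mean of all clusters of a gene, an intensity trend with a robust prior, pairwise interactions, the number of RUNX genes targeted, and leaving out each knockdown array.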

Additional observations from a re-analysis of the deposited data

How the results depend on the processing

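Counted over every combination of member, comparison and setting, fitted estimates of the 7 tested members kept their direction and their side of the threshold in 649. They turned direction in 28 and newly passed in 2 (FOS for the RUNX1 shRNA and JUN for Chb-M', both given above). The level filters, the trend and robust prior and the pairwise fit cannot move an estimate. The mean of clusters can move only that of FOSB, so much of the agreement in direction was fixed in advance. Over the leave-one-out fits, the RUNX1 shRNA estimate of FOSB ran from -0.1151 to 0.1576, the RUNX2 shRNA estimates of FOS from -0.0241 to 0.2739, of JUN from -0.0660 to 0.1249 and of JUNB from -0.0111 to 0.0177, the RUNX3 shRNA estimates of FOS from -0.0892 to 0.2088, of FOSB from -0.2167 to 0.0266, of FOSL2 from -0.0627 to 0.0093 and of JUN from -0.0482 to 0.1417, and the interaction estimates of FOSB from -0.0188 to 0.6271, of FOSL2 from -0.1378 to 0.0163 and of JUN from -0.0663 to 0.4402. Quantile normalization turned the RUNX2 shRNA estimate of JUN to -0.0048 and those of FOSL2 to -0.0123 (Chb-M' versus DMSO) and -0.0077 (Chb-M' versus Chb-50). Compound estimates are differences of single arrays, which leaving out a knockdown array cannot move, so there such fits change the spread and the p alone: over all alternatives the adjusted p of FOS for Chb-M' versus DMSO ran from 0.0734 to 0.161 (limma). The mean of clusters moved single-array differences of FOSB in 3 cases: Chb-M' minus DMSO 0.98, Chb-M' minus Chb-50 0.99 and shRUNX1 minus shLuc -0.10. Counts over all genes moved more. For the RUNX1 shRNA the 0 calls became 2 with the stricter filter, 65 with the trend and robust prior, 391 with pairwise interactions, and 0 to 817 over the leave-one-out fits. For Chb-M' versus DMSO the 74 calls became 7 with no filter, 49 with the mean of clusters, 144 with the number of RUNX genes targeted, and 0 to 77 over the leave-one-out fits. For Chb-50 versus DMSO the number of RUNX genes targeted gave 5 calls, and for Chb-M' versus Chb-50 the stricter filter gave 1. The leave-one-out counts were 0 to 1 for the RUNX3 shRNA and 0 for the RUNX2 shRNA, the interaction, Chb-50 versus DMSO and Chb-M' versus Chb-50. The cause of these moves was not tested. No paired analysis was possible because every array is labelled replicate 1, so no replicate number pairs the arrays; the pairs described above share an shRNA background and not a labelled culture or day.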
